A study of Homo sapiens with 5 samples.

Results

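The neutrophil-attracting CXC chemokines examined here are 7 secreted proteins whose genes lie together on chromosome 4: CXCL1, CXCL2, CXCL3, CXCL5, CXCL6, CXCL8 and PPBP. They were chosen by name, with earlier results of these data known, as the probe sets that carry that gene symbol alone. Their counts beside those of all genes are therefore a description. All 7 listed genes were on the table with 1 probe set each, out of 15089 named genes. The cells were HMLE, mammary epithelial cells of human origin that have been immortalised. A control line carried LACZ, a bacterial reporter, and 4 further lines each overexpressed a transcription factor, namely FOXQ1, SNAI1, TWIST1 or ZEB2. These factors induce EMT, the epithelial to mesenchymal transition, in which epithelial cells loosen their contacts and become mesenchymal in character. The study asked which genes respond alike to the different factors. All 5 lines were untreated and harvested before confluence, and the expression vector, its promoter and the clonality of the lines are not given in the sources used here. There was 1 Affymetrix array per line, so no difference below has a replicate check, an SD or a p-value.

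These chemokines carry the amino acids Glu, Leu and Arg just before their first cysteines and attract neutrophils through the receptor CXCR2, and CXCL6 and CXCL8 also through CXCR1. Epithelial cells release them, PPBP aside, when interleukin 1, tumour necrosis factor or microbial products switch on the transcription factor NF-kB. ACKR1 binds many of them without G protein signalling and is best known from red blood cells and venular endothelium.

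The promoters are shown first because NF-kB acts there. RefSeq (GRCh38.p14) promoters, 250 bases before to 50 bases after the start, were matched for all 7 genes, and 6 of the 7 hold GGAATTTCC, a form of the NF-kB site, on either strand. Of 27305 promoters of this length in the table, 129 (0.472%) hold it. The 6 copies are printed 5′ to 3′ on the strand of the gene, with 15 bases on each side and the 9 matching bases in capitals.
CXCL1: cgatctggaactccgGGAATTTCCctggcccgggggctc
CXCL2: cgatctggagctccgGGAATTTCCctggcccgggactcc
CXCL3: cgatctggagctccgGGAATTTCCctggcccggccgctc
CXCL5: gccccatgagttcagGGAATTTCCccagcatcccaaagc
CXCL6: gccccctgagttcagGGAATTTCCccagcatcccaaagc
CXCL8: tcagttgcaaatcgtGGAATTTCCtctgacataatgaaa

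The windows lie at chr4:73869300-73869338 (plus strand) for CXCL1, chr4:74099249-74099287 (minus) for CXCL2, chr4:74038744-74038782 (minus) for CXCL3, chr4:73998744-73998782 (minus) for CXCL5, chr4:73836574-73836612 (plus) for CXCL6 and chr4:73740463-73740501 (plus) for CXCL8. The first base of the letters lies at -78, -77, -78, -90, -89 and -91 from the start in the same order. The flanks fall into a CXCL1, CXCL2 and CXCL3 group, a CXCL5 and CXCL6 pair, and CXCL8 alone. In a global alignment, the promoters of CXCL1 and CXCL3 shared 254 of 300 bases (84.7%), those of CXCL5 and CXCL6 251 (83.7%) and those of CXCL1 and CXCL8 138 (46%).

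Whole promoters are given for CXCL1 and CXCL8, the members with the widest range of levels, and for PPBP, whose promoter did not hold the letters in this window. Capitals mark GGAATTTCC, the AP-1 letters TGANTCA and the TATA box letters TATAAA, each searched on both strands. They lie at chr4:73869143-73869442 (plus), chr4:73740319-73740618 (plus) and chr4:73988141-73988440 (minus).
CXCL1: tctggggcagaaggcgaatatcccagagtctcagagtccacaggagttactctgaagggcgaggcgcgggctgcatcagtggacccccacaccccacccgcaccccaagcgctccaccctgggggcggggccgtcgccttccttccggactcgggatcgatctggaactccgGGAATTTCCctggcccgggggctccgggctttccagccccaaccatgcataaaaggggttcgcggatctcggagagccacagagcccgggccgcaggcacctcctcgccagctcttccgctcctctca
CXCL8: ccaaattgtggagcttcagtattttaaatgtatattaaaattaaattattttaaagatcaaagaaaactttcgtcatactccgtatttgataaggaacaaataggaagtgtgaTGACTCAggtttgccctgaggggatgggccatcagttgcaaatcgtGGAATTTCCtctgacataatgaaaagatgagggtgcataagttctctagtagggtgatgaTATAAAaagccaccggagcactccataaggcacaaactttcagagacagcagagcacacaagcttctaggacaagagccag
PPBP: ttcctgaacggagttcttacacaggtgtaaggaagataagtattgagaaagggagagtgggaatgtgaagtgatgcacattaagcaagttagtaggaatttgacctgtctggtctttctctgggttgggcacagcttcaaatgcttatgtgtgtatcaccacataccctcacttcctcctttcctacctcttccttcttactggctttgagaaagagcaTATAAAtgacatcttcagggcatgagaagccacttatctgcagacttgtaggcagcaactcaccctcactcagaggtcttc

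CXCL8 alone among the 7 held TGANTCA, which 7.76% of all promoters hold. TATAAA was found in CXCL8 and PPBP, against 12% of all promoters, and the C/EBP letters TTGCNNAA in CXCL2 and PPBP, against 10.6%. For the overexpressed factors, CACCTG, the E-box form bound by SNAI1 and ZEB2, was found in PPBP alone, against 20.6% of all promoters. CANNTG, any E-box, was found in CXCL2, CXCL8 and PPBP, against 68.9%, and these matches include that of CACCTG. The forkhead letters TGTTTA were found in none of the 7, against 12.4%. A match describes letters and does not show binding. Only letters that match in full were found, so a site that departs from them, in CXCL8 or elsewhere, would be missed.

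Each level is the deposited value, taken to be a log2 intensity, and a difference is an array minus LACZ, so that 1 is 2-fold if the base is 2. A gene was called higher or lower when it differed by at least 2-fold and the brighter array was at or above a level floor of 4.72, the median of the gene mean levels. Over all named genes the median difference was -0.09 for SNAI1 and 0 for the other 3 factor arrays. Levels of different genes are not compared, since probe sets differ in brightness.

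Of the 7 chemokine genes, 4 were lower on the FOXQ1 array than on LACZ, namely CXCL1, CXCL8, CXCL3 and CXCL2, and 0 were higher. Over all named genes 6.93% were lower and 6.49% higher there. On the SNAI1 array CXCL1 and CXCL8 were lower and CXCL5 and PPBP higher, 2 and 2 of 7, where 7.95% of all genes were lower and 4.25% higher. On TWIST1 CXCL8 was lower and CXCL5 and PPBP were higher, 1 and 2 of 7, against 4.2% and 7.21% of all genes. On ZEB2 CXCL8 was lower and CXCL3 and PPBP were higher, again 1 and 2 of 7, against 4.32% and 6.34%. The medians of the 7 differences were -1.19 and -0.3 on FOXQ1 and SNAI1, and 0.18 and 0.16 on TWIST1 and ZEB2. CXCL6 stayed below the floor on all 5 arrays, and 6 of the 7 genes reached it on at least 1. A gene that never reaches the floor cannot be called. Over the 8594 named genes that did reach it, 12.2%, 14%, 7.38% and 7.59% were lower on FOXQ1, SNAI1, TWIST1 and ZEB2. In the same order 11.4%, 7.46%, 12.7% and 11.1% of them were higher. All these comparisons share the LACZ array.

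**Figure D1:**
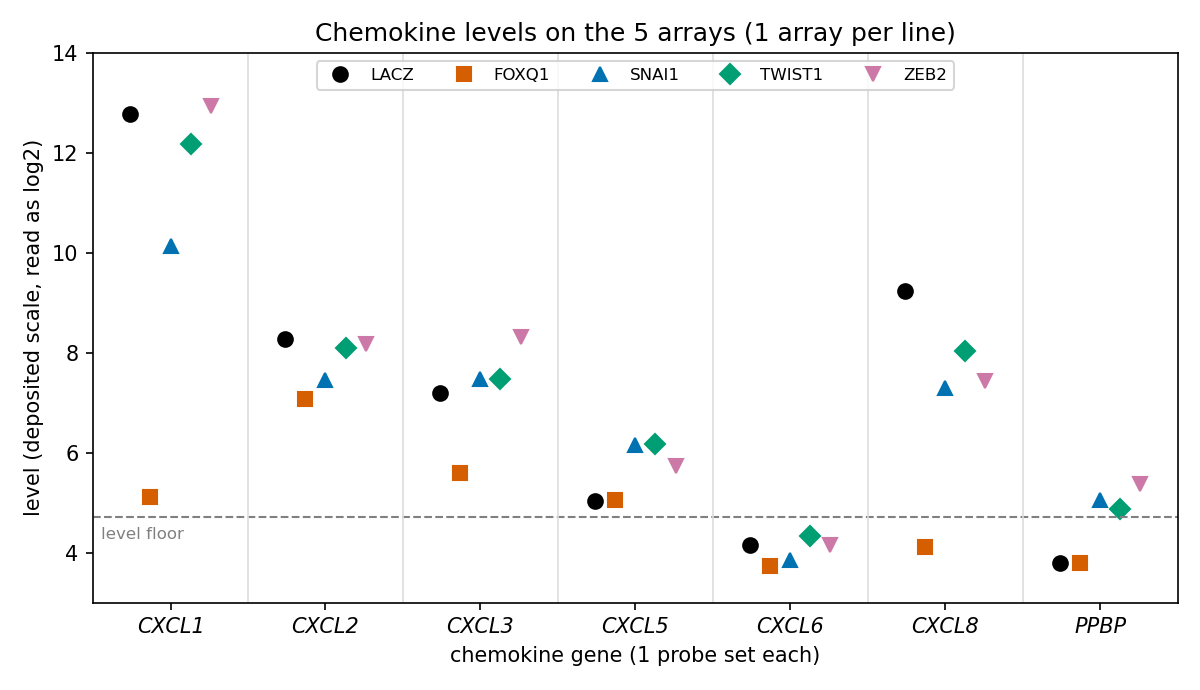
Level of each chemokine gene (deposited value, taken as log2) on the 5 arrays, 1 symbol per array, with the level floor of 4.72 as a dashed line. The FOXQ1 array gave the lowest CXCL1 (5.12) and CXCL8 (4.12), far below the other 4 arrays, while CXCL6 lay below the floor on every array.

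CXCL1 (chromosome 4, 73869393 to 73871308), a strong CXCR2 ligand first described as a melanoma growth-stimulating protein, was at 12.77 on LACZ and 5.12 on FOXQ1, while SNAI1 gave 10.14, TWIST1 12.17 and ZEB2 12.93. FOXQ1 was thus far apart from the rest, SNAI1 in between, and LACZ, TWIST1 and ZEB2 close together. The differences from LACZ were -7.65, -2.63, -0.6 and 0.16, so CXCL1 was called lower on FOXQ1 (201-fold if the base is 2) and SNAI1 (6.19-fold) and was not called on TWIST1 or ZEB2. Only 16 of the 15089 named genes, CXCL1 included, had a difference that low or lower on FOXQ1.

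CXCL8 (73740569 to 73743716), interleukin 8, the best known neutrophil attractant in humans, was at 9.23 on LACZ and 4.12 on FOXQ1, while SNAI1 gave 7.3, TWIST1 8.03 and ZEB2 7.44. It was the 1 member called lower on all 4 factor arrays, at -5.11, -1.93, -1.2 and -1.79, and 2.27% of all named genes were lower on all 4. The FOXQ1 level was below the floor, so its 34.5-fold difference is not an exact ratio. The SNAI1, TWIST1 and ZEB2 levels lay within 0.73 of each other.

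CXCL2 and CXCL3, also CXCR2 ligands, moved over a smaller range. CXCL2 (74097040 to 74099195) was at 8.27 on LACZ and 7.08 on FOXQ1, while SNAI1 gave 7.45, TWIST1 8.09 and ZEB2 8.18, and passed 2-fold on FOXQ1 alone, at -1.19. CXCL3 (74036589 to 74038689) was at 7.2 on LACZ and 5.6 on FOXQ1, while SNAI1 gave 7.48, TWIST1 7.48 and ZEB2 8.31. It was lower on FOXQ1, at -1.6, and higher on ZEB2, at 1.11. CXCL1, CXCL2 and CXCL3 are close paralogs, the probe sequences were not used here, and signal shared between them cannot be told apart.

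CXCL5, a CXCR2 ligand of epithelial cells, and PPBP, the platelet protein from which the neutrophil attractant NAP-2 is cut, were never called lower. Both were called higher on SNAI1 and TWIST1, PPBP also on ZEB2, and neither was called on FOXQ1. CXCL5 (73995642 to 73998677) was at 5.03 on LACZ and 5.06 on FOXQ1, while SNAI1 gave 6.16, TWIST1 6.17 and ZEB2 5.73. PPBP (73986439 to 73988190) was at 3.8 on both LACZ and FOXQ1, while SNAI1 gave 5.06, TWIST1 4.87 and ZEB2 5.37. For both genes LACZ and FOXQ1 were the low arrays and SNAI1, TWIST1 and ZEB2 the high ones. CXCL5 differed from LACZ by 0.03, 1.13, 1.14 and 0.7, and PPBP by 0, 1.26, 1.07 and 1.57. The highest of these levels was 6.17, and with a floor at percentile 75 none of the CXCL5 and PPBP calls was made.

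CXCL6 (73836678 to 73838760), a ligand of CXCR1 and CXCR2, was at 4.15 on LACZ and 3.73 on FOXQ1, while SNAI1 gave 3.85, TWIST1 4.33 and ZEB2 4.16. No order can be read from values below the floor. Its promoter is close to that of CXCL5, which reached the floor on all 5 arrays, though levels of different genes are not compared here. Since the probe sequences were not used, signal shared between CXCL5 and CXCL6 cannot be told apart either.

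**Figure D2:**
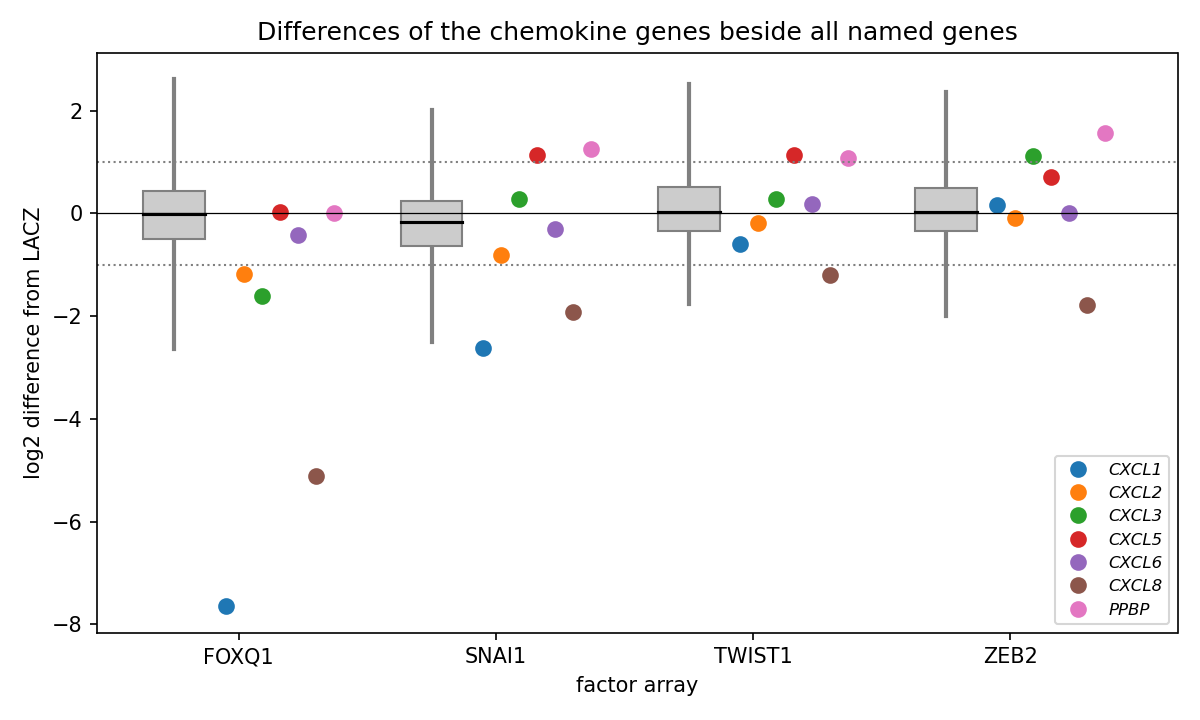
Log2 difference from LACZ of each chemokine gene (coloured points) on the 4 factor arrays, beside all named genes with at least 1 array at the floor or above (box, quartiles and median; line, central 95%). Dotted lines mark 2-fold. CXCL1 (-7.65) and CXCL8 (-5.11) lie far below the line on FOXQ1, and CXCL8 is below the lower dotted line on all 4 arrays.

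The factor lines were then set against each other, which leaves LACZ out; these comparisons share the FOXQ1 array instead. On SNAI1 5 of 7 chemokine genes were higher than on FOXQ1, on TWIST1 6 and on ZEB2 5, against 3.81%, 5.35% and 6.56% of all named genes, and 0 were lower. CXCL1 was 5.02, 7.05 and 7.81 higher than on FOXQ1, CXCL8 3.18, 3.91 and 3.32, CXCL3 1.88, 1.88 and 2.71, and PPBP 1.26, 1.07 and 1.57. CXCL2 was 0.37, 1.01 and 1.1 higher and CXCL5 1.1, 1.11 and 0.67, so both lay close to the threshold. The FOXQ1 levels of CXCL8 and PPBP were below the floor and that of CXCL1 was near it, so their differences are not exact ratios. CXCL1, CXCL2, CXCL3 and CXCL8 had their lowest level of the 5 arrays on FOXQ1, and CXCL5 was within 0.03 of its lowest there. The 6 genes on TWIST1 and 5 on ZEB2 became 5 and 4 under quantile normalization.

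Between the other factor lines CXCL1 was the 1 member called. It was 2.03 higher on TWIST1 and 2.79 higher on ZEB2 than on SNAI1, 1 of 7 members each, where 6.95% and 6.23% of all genes were higher. Between ZEB2 and TWIST1 0 of 7 members were called in either direction, against 4.94% of all genes. The largest differences there were 0.83 for CXCL3 and 0.76 for CXCL1. The levels of CXCL3 were equal on SNAI1 and TWIST1, and those of CXCL5 differed by 0.01.

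**Figure D3:**
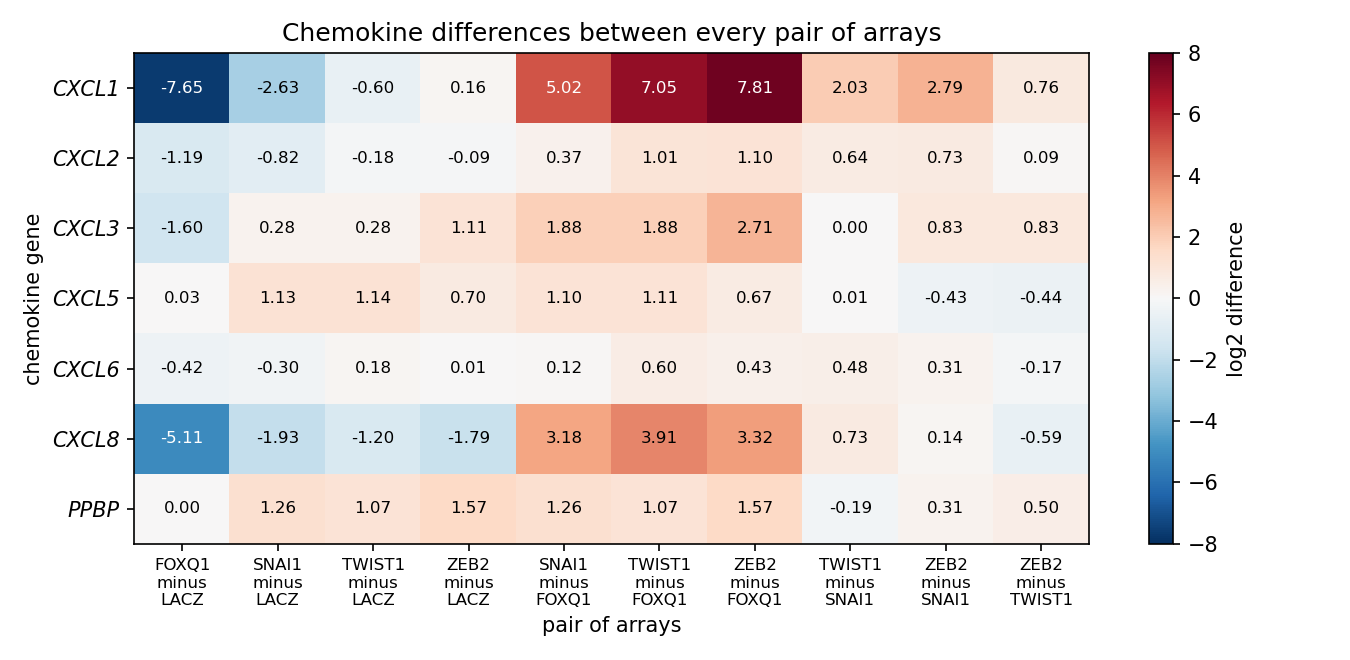
Log2 difference of each chemokine gene (rows) between every pair of arrays (columns, first array minus second). The 3 columns against FOXQ1 are positive for all 7 genes, up to 7.81 for CXCL1 on ZEB2.

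The 7 genes span 359 kb, from 73740569 to 74099195, and their neighbours were examined to see whether the region moved as a whole. From COX18 to PARM1, a stretch of 1998 kb, 27 named genes were measured, the 7 chemokines included, and 14 of the others reached the floor on at least 1 array. On FOXQ1 4 of these 14 were lower, 0 were higher and the median was -0.52. On SNAI1 the numbers were 2 and 0, on TWIST1 3 and 1, and on ZEB2 1 and 2, with medians of -0.33, -0.09 and -0.22. The low genes on FOXQ1 were RASSF6, EPGN, EREG and the pseudogene HMGA1P2, at -3.54, -2.66, -2.35 and -1.77. The FOXQ1 levels of RASSF6, EPGN and EREG were below the floor, so these 3 differences are not exact ratios. Over the 8594 named genes that reach the floor, 12.2%, 14%, 7.38% and 7.59% were lower on FOXQ1, SNAI1, TWIST1 and ZEB2 and 11.4%, 7.46%, 12.7% and 11.1% higher, with medians of -0.01, -0.16, 0.03 and 0.02.

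Genes without a large difference lay between and beside the members. ANKRD17, an ankyrin repeat protein, was between 12.59 and 12.99 on all 5 arrays, and COX18, a mitochondrial assembly protein, between 8.86 and 9.44. PF4V1, a variant of platelet factor 4, lies between CXCL6 and CXCL1 and differed by -0.35, -0.46, 0.78 and -0.68. MTHFD2L, a mitochondrial folate enzyme next to CXCL2, differed by 0.2, -0.33, 0.56 and 0.55. The pseudogene CXCL1P1 was between 9.96 and 10.67 and did not share the range of CXCL1. PF4, platelet factor 4 itself, reached the floor on TWIST1 alone, at 5.16. AFP, AFM, BTC and PARM1 were below the floor on every array, and ALB reached 4.89 on TWIST1.

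The epidermal growth factor family members EPGN (epigen) and EREG (epiregulin) lie beyond CXCL2. EPGN was at 7.21 on LACZ and 4.55 on FOXQ1, while SNAI1 gave 7.91, TWIST1 6.2 and ZEB2 9.37. EREG was at 6.79, 4.44, 7.18, 8.23 and 9.41 in the same order. Both had their lowest level on FOXQ1 and their highest on ZEB2, as CXCL3 did. RASSF6, a Ras association protein upstream of CXCL8, was at 5.99 on LACZ and 2.45 on FOXQ1, while SNAI1 gave 2.91, TWIST1 3.21 and ZEB2 4.92, and was lower on all 4.

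**Figure D4:**
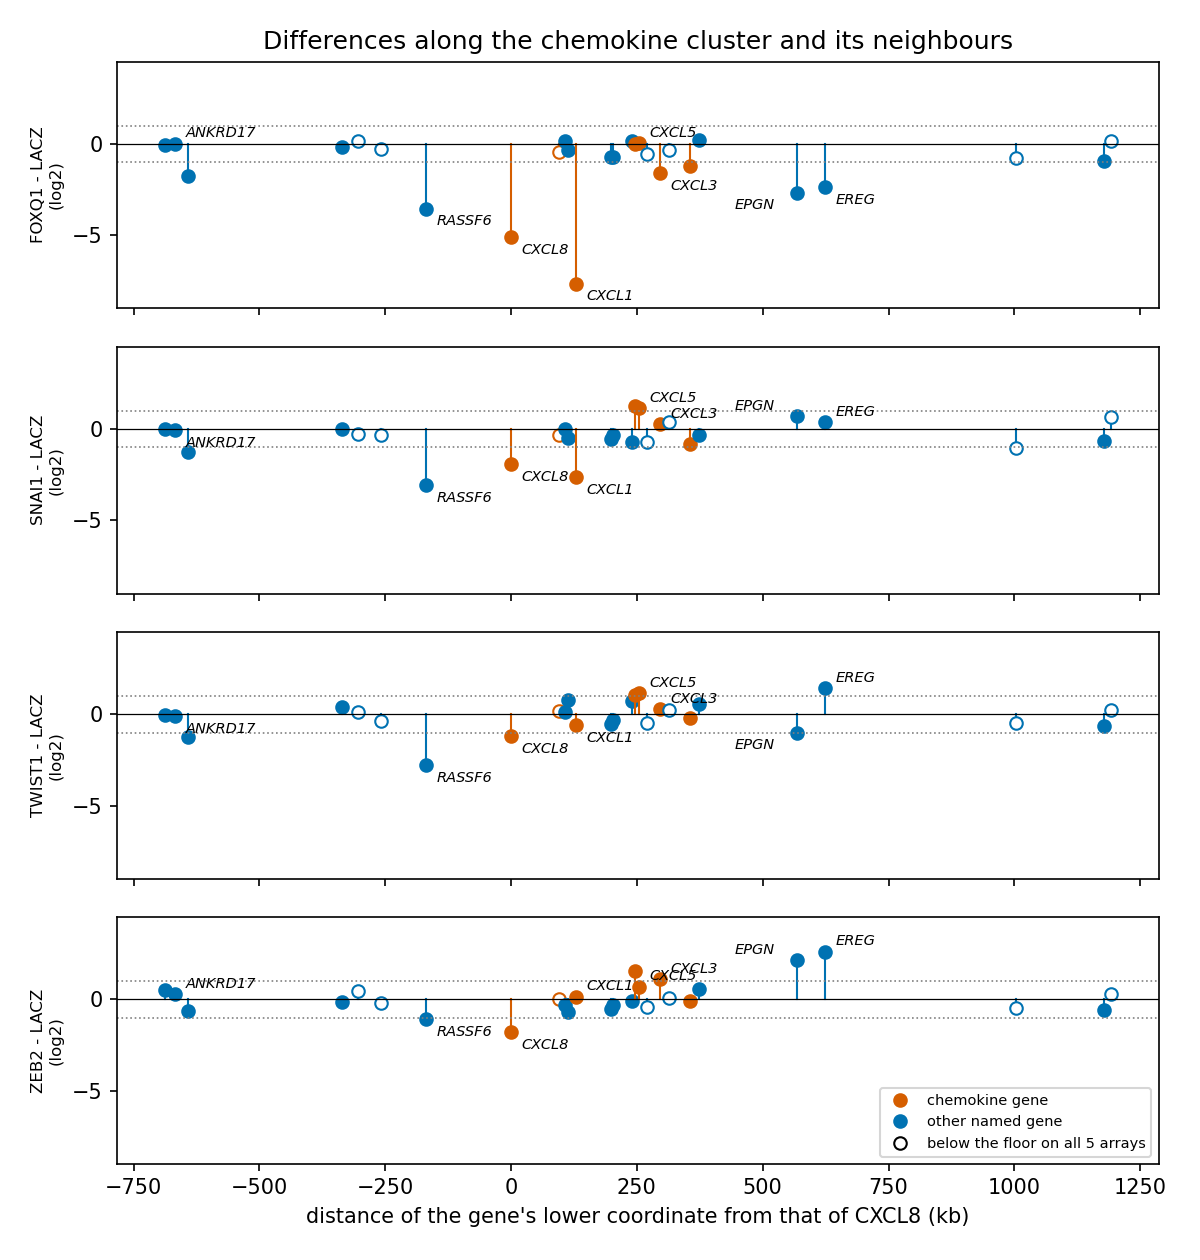
Log2 difference from LACZ of the 27 named genes from COX18 to PARM1, by distance from CXCL8 in kb, with 1 panel per factor array. Open symbols were below the floor on all 5 arrays. On FOXQ1 CXCL8 and CXCL1 reach -5.11 and -7.65 while ANKRD17, at 0.02, and CXCL5, at 0.03, stay at 0.

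The receptors were examined next. CXCR1 lay between 3.19 and 3.83 and CXCR2 between 3.53 and 4.18, below the floor on all 5 arrays. ACKR1 (chromosome 1, 159204875 to 159206500) was at 3.17 on LACZ and 5.71 on FOXQ1, while SNAI1 gave 9.7, TWIST1 9.22 and ZEB2 10.5. It was called higher on all 4 factor arrays, at 2.54, 6.53, 6.05 and 7.33, where 2.16% of all named genes were, so 1 of 3 receptor genes was higher. Its LACZ level was below the floor, so these are not exact ratios. Of 4 measured endothelial markers KDR, TEK and SELE were below the floor on every array, and EMCN was between 4.59 and 5.11. None of the 4 was called on any array, and their summed level was between 15.18 and 15.83.

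The genes of the pathway came from lists of 9 groups, written with earlier results of these data known. Of 17 measured upstream cytokines 3 were lower on every factor array, and the same 3 were lower on all 4: IL1A, IL1B and TNFSF10. On each array 0 were higher, and the medians were -0.27, -0.8, -0.56 and -0.39 on FOXQ1, SNAI1, TWIST1 and ZEB2. Over all named genes 6.93%, 7.95%, 4.2% and 4.32% were lower in that order, and 2.27% on all 4. Of the 17, 7 reached the floor on at least 1 array. IL1B was at 15.43 on LACZ and 7.12 on FOXQ1, while SNAI1 gave 3.62, TWIST1 4.87 and ZEB2 4.94. Among the factor arrays IL1B was highest on FOXQ1 and IL1A on TWIST1. A link to the chemokine levels was not tested. IL1A had a LACZ level of 15.17 and factor array levels of 5.72 to 6.49. TNFSF10, the death ligand TRAIL, was at 7.58 on LACZ and 5.78 on FOXQ1, while SNAI1 gave 3.25, TWIST1 5.87 and ZEB2 3.83.

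Of 26 measured interleukin 1, interleukin 17, TNF and Toll-like receptors and adaptors, 7, 2, 4 and 7 were higher on FOXQ1, SNAI1, TWIST1 and ZEB2. The numbers lower were 5, 6, 2 and 5, with medians of 0.1, -0.12, 0.28 and 0. Of the 26, 23 reached the floor on at least 1 array. Over all named genes that did, 11.4%, 7.46%, 12.7% and 11.1% were higher and 12.2%, 14%, 7.38% and 7.59% lower. IL1R1, the signalling receptor for interleukin 1, was at 6.51 on LACZ and 12.81 on FOXQ1, while SNAI1 gave 11.85, TWIST1 12.87 and ZEB2 11.05. IL1R2, its decoy receptor, was at 5.05 on LACZ and below the floor on the others, between 3.35 and 4.08. TNFRSF21, a death domain receptor, had a LACZ level of 10.47 and factor array levels of 5.02 to 6.27. IL1RL1, the interleukin 33 receptor, was at 12.32 on FOXQ1 and between 4.67 and 5.9 elsewhere. On all 4 factor arrays IL1A and IL1B were thus below LACZ and IL1R1 above it.

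Of 18 listed NF-kB subunits and regulators 13 were measured, and RELA, the p65 subunit, was not on the list. Of the 13, 9 were lower on SNAI1, 5 each on FOXQ1 and ZEB2, and 3 on TWIST1. The order FOXQ1, SNAI1, TWIST1, ZEB2 gave medians of -0.32, -1.19, -0.31 and -0.39. IKBKB, a kinase of the pathway, was the 1 gene higher, at 1.34 on FOXQ1, and 0 were higher there with the median of probe sets. All 13 genes reached the floor, where 12.2%, 14%, 7.38% and 7.59% of named genes were lower. On SNAI1, 7 instead of 9 were lower after median gene centring and 8 after loess. NFKB1, which encodes the p50 subunit, was at 11.48 on LACZ and 10.65 on FOXQ1, while SNAI1 gave 9.27, TWIST1 10.08 and ZEB2 10.18. TNFAIP3, a feedback inhibitor, was at 12.41, 10.1, 8.5, 9.76 and 10.17. NFKBIE, an inhibitor of NF-kB, was at 6.09, 5.07, 4.71, 4.7 and 4.98, and its call on FOXQ1 was lost after quantile normalization, at -0.98. IKBKE, an IKK-related kinase, differed by -1.55, -1.19, -0.98 and -0.99. NFKB1 and TNFAIP3 had their lowest level on SNAI1, and CXCL1 and CXCL8 on FOXQ1. A link between them was not tested.

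AP-1 and C/EBP factors and stress kinases went both ways, with 5, 4, 6 and 6 of 14 measured genes higher and 3, 4, 1 and 1 lower. The medians were -0.19, -0.66, 0.09 and -0.05. Of the 14, 12 reached the floor, where 11.4%, 7.46%, 12.7% and 11.1% of named genes were higher and 12.2%, 14%, 7.38% and 7.59% lower. DUSP1, a phosphatase that ends MAP kinase signalling, had a LACZ level of 5.23, below the 8.81 to 9.91 of the factor arrays. EGR1, an immediate early factor, had a LACZ level of 12.98 and factor array levels of 14.36 to 15.99. ATF3, a stress factor, had a LACZ level of 7.37 and factor array levels of 4.64 to 5.84. FOSL2, a Fos family member, was at 5.45 on LACZ and 6.25 on FOXQ1, while SNAI1 gave 6.88, TWIST1 7.59 and ZEB2 7.51. Of 8 measured regulators of mRNA decay 1 was called, ZFP36L2, which destabilises mRNAs with AU-rich elements. It was higher on SNAI1 and TWIST1, at 1.03 and 1.5, and differed by 0.93 and 0.92 on FOXQ1 and ZEB2. Over all named genes 4.25% and 7.21% were higher on SNAI1 and TWIST1. The list medians were 0.33, -0.22, 0.29 and 0.15.

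Of 12 measured inflammatory genes often induced with these chemokines, 4, 2, 3 and 3 were higher and 4, 6, 4 and 5 lower. The medians were -0.52, -0.94, 0.08 and -0.6. All 12 reached the floor, where 11.4%, 7.46%, 12.7% and 11.1% of named genes were higher and 12.2%, 14%, 7.38% and 7.59% lower. F3, tissue factor, was at 14.96 on LACZ and 9.76 on FOXQ1, while SNAI1 gave 12.73, TWIST1 13.1 and ZEB2 13.23. IER3, an early response gene, was at 11.38, 7.54, 9.48, 9.45 and 8.98. Both had the FOXQ1 array lowest and LACZ highest, the same ends as CXCL8. IRF1, an interferon regulatory factor, was lowest on SNAI1, at 5.18 against 9.76 on LACZ. TNFAIP6, a hyaluronan-binding protein, was at 3.91 on LACZ and 8.21 on FOXQ1, while SNAI1 gave 7.22, TWIST1 6.48 and ZEB2 5.4.

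Other chemokines were mostly below the floor, with 4 of 13 measured genes reaching it on any array. CCL20, an attractant of CCR6-bearing cells, was at 7.65 on LACZ and 6.48 on FOXQ1, while SNAI1 gave 8.52, TWIST1 7.44 and ZEB2 6.84. CCL28, a mucosal chemokine, was at 7.83, 7.1, 5.89, 7.73 and 5.25. CCL20 was lower on FOXQ1 and CCL28 on SNAI1 and ZEB2, and 0 were higher on any array. Over all named genes 6.93%, 7.95% and 4.32% were lower on FOXQ1, SNAI1 and ZEB2. The list medians were -0.16, -0.15, -0.04 and -0.03. CXCL9, CXCL10 and CXCL11, ligands of CXCR3 from a neighbouring cluster, were below the floor on all 5 arrays.

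**Figure D5:**
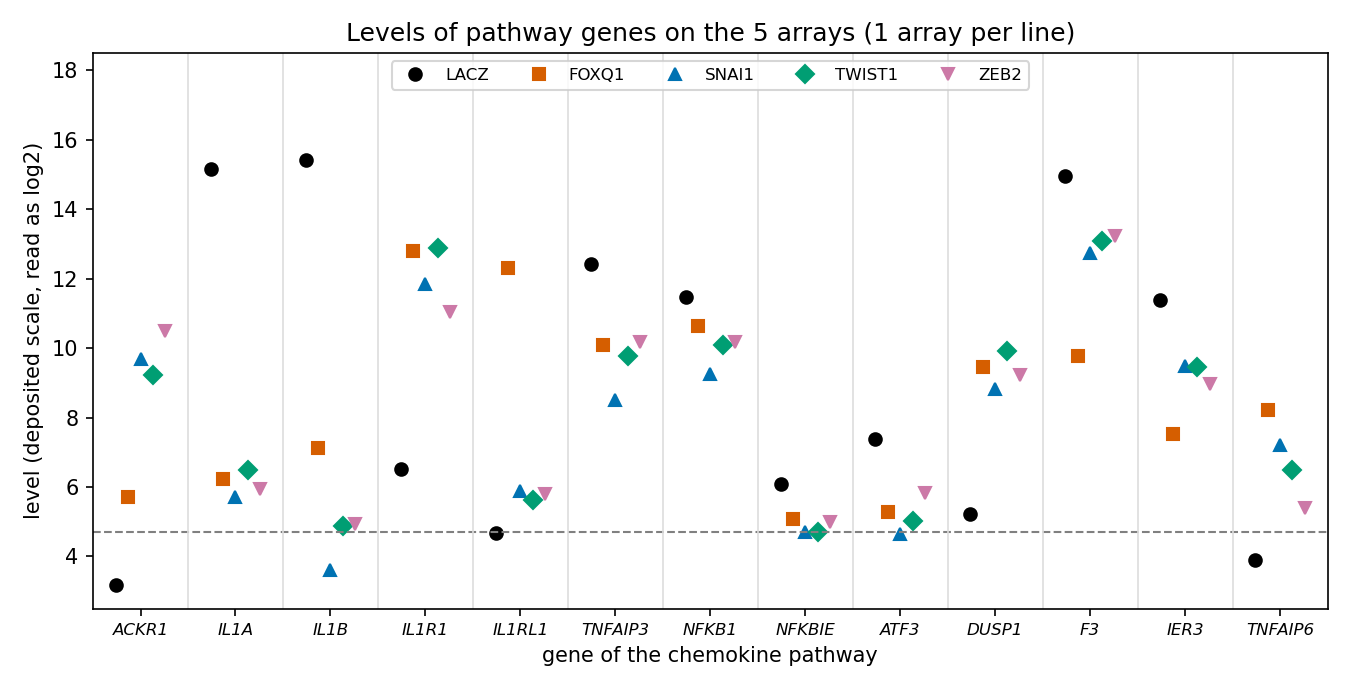
Levels (deposited values, taken as log2) of 13 pathway genes on the 5 arrays, 1 symbol per array, with the level floor dashed. IL1A and IL1B are far higher on LACZ (15.17 and 15.43) than on the factor arrays, ACKR1 and IL1R1 are lowest on LACZ (3.17 and 6.51), and F3 is lowest on FOXQ1 (9.76).

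The epithelial identity of the cells and possible other cells were checked on marker lists. Of 10 measured mammary epithelial markers all 10 were at or above the floor on LACZ and 5 or 6 on each factor array. Of these 10, 8 were lower on all 4 factor arrays, against 2.27% of all named genes. MUC1 went the other way, called higher on FOXQ1, SNAI1 and TWIST1, at 3.25, 1.57 and 2.55. ITGA6 was lower on these 3 arrays and was not called on ZEB2, at -0.53. The summed level of the 10 markers was 115.64 on LACZ against a range of 59.02 to 69.28 in the factor lines. Its part in the chemokine differences was not tested. Of 12 neutrophil and monocyte markers 3 or 4 were at or above the floor on each array. PTPRC at 4.9 to 5.03 and CD53 at 4.98 to 5.49 were among them. FCGR2A was called higher on FOXQ1 alone, at 5.55 against 4.51 on LACZ, where 6.49% of all named genes were higher. FCGR3B, CSF3R, CD14 and CSF1R were below the floor everywhere, and the summed level of the 12 was between 46.1 and 55.25. LYN, a kinase of the same list, was lower on all 4 arrays, from 10.89 on LACZ to between 5.49 and 8.83. Of 5 platelet markers, which include PPBP, GP9, TREML1 and PLEK were below the floor on every array and the summed level was between 18.98 and 20.5.

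The genes with the most similar pattern were taken as those with the smallest root mean square difference from a member after each gene's mean over the 5 arrays was removed, among 8593 genes that reached the floor. The nearest to CXCL8 was F3, at 0.26, followed by FABP5, a fatty acid binding protein, at 0.3 and SNORD93, a small nucleolar RNA, at 0.35. Nearest to CXCL1 were CCNJL at 0.44, EMB at 0.63 and GALNT3, a glycosyltransferase that starts O-linked sugar chains, at 1.01. CCNJL was at 11.53 on LACZ and 3.3 on FOXQ1, while SNAI1 gave 7.66, TWIST1 9.89 and ZEB2 10.73, the same order as CXCL1 but for LACZ and ZEB2.

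The other members had closer neighbours, since their ranges are small. TH2LCRR and DCAF13 lay at 0.07 and NDUFAF2 at 0.09 from CXCL2. PPP1R14BP2 and TMEM14EP lay at 0.15 and SLC29A1, a nucleoside transporter, at 0.16 from CXCL3. LOC100289230, GOPC and RNU1-14P were at 0.08, 0.09 and 0.09 from CXCL5. DCTD, MSTO2P and JAK2 were each at 0.14 from PPBP. No member was among the 3 nearest of another. With 5 arrays many genes share a pattern, so these are descriptions of likeness.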

How the data were processed

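RNA of 5 HMLE-derived lines was measured on Affymetrix arrays, 1 per line, and the lines were grouped by the sample titles. The values the authors deposited, 1 per probe set and array, were taken to be log2 intensities from their range of 1.99 to 19.73. The sources used here do not give the base, normalization or summarization. The medians of the 5 arrays ran from 4 to 4.05. The Transcriptome Analysis Console and hg38 are named per the submitters' processing notes. The 65521 probe sets cover chromosomes 1 to 8 with part of 9; others were not analysed here.

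The platform annotation gave 16126 probe sets 1 symbol, 419 several and 48976 none. Of these, 16056 were matched to RefSeq genes by Entrez ID, symbol or synonym, and 225 on another chromosome were left out. This gave 15089 genes, 7811 of them protein-coding, each with its brightest probe set. Calls used a 2-fold threshold and the floor. Nothing was rescaled, and the number of arrays limits the precision. The members and lists were chosen with earlier results of these data known. Named genes were the members, receptors, neighbours, up to 4 called genes per other list with the largest mean difference, and the 3 nearest patterns per member. HMGA1P2, CXCL1P1, IKBKB, LYN and the marker genes were added after their values were seen, as were CXCL9, CXCL10, CXCL11 and the genes of the last part. Calling was tested on simulated data. Alternatives were loess with a span of 0.3, quantile normalization, median gene centring, the median of probe sets, no floor or percentile 75, and 3-fold or 1.5-fold thresholds. Statistics used pandas 2.3.3 and numpy 2.4.6 under Python 3.11.15, loess used statsmodels 0.14.6, and matplotlib 3.10.9 drew the plots.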

Additional observations from a re-analysis of the deposited data

Results flagged for a closer look

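Genes were set apart here when they were called in opposite directions against LACZ on different factor arrays. Each such difference rests on 1 array per line, and the difference between the lines was not tested. CXCL3 differed by -1.6 on FOXQ1 and by 1.11 on ZEB2. EPGN differed by -2.66 on FOXQ1 and -1.01 on TWIST1 and by 2.16 on ZEB2. Its TWIST1 difference missed 2-fold under quantile normalization (-0.94) and loess (-0.93). EREG differed by -2.35 on FOXQ1 and by 1.44 on TWIST1 and 2.62 on ZEB2.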

How the results depend on the processing

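None of the 28 member differences from LACZ changed its call under quantile normalization, median gene centring, loess, the median of probe sets (each member has 1) or without a floor, and no called difference changed sign under any alternative. Quantile normalization took the genes higher than on FOXQ1 from 6 to 5 on TWIST1 and from 5 to 4 on ZEB2. A stricter rule removed the smaller calls. The 4 genes lower than LACZ on FOXQ1 became 3 at 3-fold, without CXCL2, and 3 with the floor at percentile 75, without CXCL3. With 3-fold the genes lower than LACZ on TWIST1 went to 0, those lower on all 4 arrays to 0, and those higher on SNAI1, TWIST1 and ZEB2 to 0 each. Against FOXQ1, 3 were then higher on each of SNAI1, TWIST1 and ZEB2. With the floor at percentile 75, those higher than LACZ went to 0 on SNAI1 and TWIST1 and to 1 on ZEB2. Against FOXQ1, 1 was then higher on SNAI1 and 3 each on TWIST1 and ZEB2. With 1.5-fold, 2 were lower on TWIST1, and 3 were higher than on SNAI1 on TWIST1 and 3 on ZEB2. Of the 28 member differences, 8 calls were lost at 3-fold, 6 with the higher floor, and 3 were gained at 1.5-fold. These follow from the thresholds themselves. Without a floor 5 upstream cytokines, not 3, were lower on FOXQ1, SNAI1 and TWIST1. No paired analysis was possible because each line has 1 array. Signal over background was judged by the floor alone, so values near or below 4.72 are the least certain. These are CXCL5, CXCL6 and PPBP, and CXCL1 and CXCL8 on FOXQ1.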

Other observations

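Outside the chemokines, 25 named genes had the letters GGAATTTCC in the same promoter window, and 15 of them reached the floor on any array. Lower than LACZ were 3 of the 25 (12%) on FOXQ1, 4 (16%) on SNAI1 and 2 (8%) each on TWIST1 and ZEB2. Among the 7375 named genes whose promoter in the table lacks the letters, the shares were 9.1%, 11.8%, 4.99% and 5.44% in the same order. Higher than LACZ were 0 of the 25 on FOXQ1 and 1 (4%) on each other array, against 10.2%, 5.61%, 11.4% and 9.33% of the genes without the letters. With 25 genes, 1 gene is a share of 4%, and the difference between the groups was not tested. NFKB1 and REL, subunits of NF-kB, were among the 25, and REL was at 9.39 on LACZ and 9.07 on FOXQ1, while SNAI1 gave 8.34, TWIST1 9.24 and ZEB2 7.54. CACHD1 was at 6.94 on LACZ, 3.37 on FOXQ1 and between 6.64 and 6.76 on the others, so it was low on FOXQ1 alone.

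Toll-like receptor genes differed between the lines. TLR2, a receptor for bacterial lipoproteins, was at 6.25 on LACZ and 5.07 on FOXQ1, while SNAI1 gave 6.42, TWIST1 6.5 and ZEB2 7.75, with the lowest and highest arrays those of CXCL3. TLR3, a receptor for double-stranded RNA, was at 7.26, 9.27, 6.05, 7.27 and 5.28, and its highest and lowest arrays were the reverse. Interleukin 6 (IL6), often induced with CXCL8, was at 7.37, 6.29, 4.94, 7.3 and 5.24, lowest on SNAI1. These genes were picked with their values in view.

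Some deposited values coincide between arrays. CXCL1P1 was at 10.34 on SNAI1, TWIST1 and ZEB2, and the neighbouring pseudogene HNRNPA1P55 at 12.26 on all 3. Of 8594 genes that reached the floor, 27 (0.314%) had equal values on these 3 arrays. Equal values of CXCL3 on SNAI1 and TWIST1 were shared by 2.25% of these genes.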
